A study of Mus musculus with 36 samples.

Results

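The response described here is that of heterozygous (het) mouse embryonic fibroblasts to antimycin and oligomycin (AO). Each of the 4 lines, named E1.3, E2.5, E2.6 and, as the fourth, E2.8, gave 1 library after 4 h of AO and 1 untreated library, so that 8 of the 36 libraries of the series were compared, paired by line. Where 4 values stand in a row, they follow this order of lines. The 8 libraries were picked by their labels; the response was singled out, and its gene lists were drawn up, with earlier results of these data known. The allele in question is N129D, knocked into Tbk1, of which a het line has 1 copy, a homozygous (hom) line 2 and a wild-type (WT) line 0. The study has 4 het, 3 hom and 3 WT lines. Each was treated for 4 h with AO or with poly(I:C), which imitates the RNA of viruses, or left untreated. Cells were grown in DMEM. Doses, any vehicle for the untreated cells and the derivation of the lines are not stated in the labels. If the lines were not grown from separate embryos, the paired p-values below measure only how much the treatment changes varied between these lines.

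Antimycin blocks complex III of the respiratory chain and oligomycin blocks ATP synthase, so that together they stop respiration, let the mitochondrial membrane potential collapse and trigger mitophagy, the removal of damaged mitochondria by autophagy. Tbk1 encodes a kinase whose substrates include the autophagy receptors optineurin and p62 and the transcription factor IRF3 downstream of sensors of foreign nucleic acids. Mitochondrial damage is also known to activate kinases of the translation factor eIF2α, which raises translation of the transcription factor ATF4 in what is called the integrated stress response, while TFEB and TFE3, which drive genes of lysosomes, enter the nucleus when the folliculin complex is inhibited on damaged or starved organelles.

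The cells carried the markers of their label. All 12 fibroblast markers had counts in both groups, and their summed level was 3337 to 7206 CPM (counts scaled by library sizes adjusted with TMM) in AO libraries and 5242 to 8432 CPM in untreated ones. In these bulk libraries, fewer cells of a type and less RNA per cell cannot be told apart. T and B lymphocyte markers summed to at most 0.307 CPM in AO libraries and 0.185 CPM in untreated ones, with Cd3e, Cd3g, Cd8a and Ms4a1 at 0 in all 8. Endothelial markers summed to 18.1 to 35.8 CPM in AO libraries and 8.27 to 22.9 CPM in untreated ones. Epithelial markers were highest in E2.5, with 21.7, 91.4, 19.9 and 8.74 CPM with AO and 30.4, 107.8, 19.2 and 11.3 CPM untreated. Skeletal muscle markers summed to 2.08, 11.2, 19.8 and 2.76 CPM with AO and 2.1, 13.1, 24.4 and 2.76 CPM untreated. What part these markers have in the results was not tested. Depth was 6481295 to 8486287 counts in AO libraries and 5234667 to 8308439 counts in untreated ones. Line E2.6 stood apart from the other het lines: within a group, pairs of libraries that held E2.6 differed by a chi-square of at least 26.1 for each degree of freedom, and other pairs by at most 15.9. Macrophage markers summed to 37.4 CPM (AO) and 58.4 CPM (untreated) in E2.6, against 3.0 to 7.23 CPM (AO) and 4.36 to 10.8 CPM (untreated) in the other 3 lines. Counts of list members in the AO response are therefore also given without E2.6.

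AO moved 3671 of the 13364 genes tested in het lines, or 27.5%, at an adjusted p under 0.05. Of these, 1723 were higher after AO (12.9% of the genes tested) and 1948 were lower (14.6%). Most changes were small: the median size among these genes was 0.53 on the log2 scale, 182 genes rose by at least 1 log2 unit and 400 fell by at least as much. The direction was the same in all 4 lines for 3503 of them, or 95.4%. The count was 3475 without E2.6 (12.6% of genes higher and 13.6% lower), 2191 without E2.8, and 1486 when the pairing by line was left out (6.17% higher and 4.95% lower). Without E1.3, 1215 of 13317 genes tested were higher and 1270 lower. Without E2.5 it was 1263 and 1383 of 13338, and without E2.8 1057 and 1134 of 13336. List counts given below for these fits stand beside these lower shares.

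The genes with the largest rises encode secreted stress signals, stress-response regulators and a heme-degrading enzyme. Gdf15, a secreted hormone of the TGF-β superfamily that marks mitochondrial stress (chr8:70629393-70632456, GRCm38), had 6.35, 12.8, 8.55 and 10.1 CPM in the 4 AO-treated lines, against 0.451, 1.85, 1.32 and 0.395 CPM in the same lines untreated. It rose by 3.27 ± 0.34 (SE) on the log2 scale, or 9.66-fold, with an adjusted p of 9.69e-07. Each AO library lay above every untreated library. Hmox1, heme oxygenase, which breaks down heme (chr8:75093621-75100589), had 314, 521, 353 and 602 CPM with AO and 52.9, 79.5, 85.4 and 68.5 CPM untreated, a log2 rise of 2.61 ± 0.15 (SE) with an adjusted p of 1.06e-09. Ccl20, a chemokine that attracts cells bearing the receptor Ccr6, had 6, 19.7, 2.21 and 25.6 CPM with AO and 0.902, 0.739, 0 and 2.5 CPM untreated. It rose by 3.58 ± 0.54 (SE) (adjusted p = 5.37e-05), although the untreated level in E2.8 lay above the AO level of 2.21 CPM in E2.6. Gadd45a, a stress gene of growth arrest and DNA damage, rose by 2.49 ± 0.25 (SE), Stc2, a secreted glycoprotein of the stanniocalcin family, by 2.03 ± 0.19 (SE), and Cass4, an adaptor of the Cas scaffold family, by 2.43 ± 0.46 (SE). Without E2.6 the rise of Cass4 was 1.83. The uncharacterized gene 5430430B14Rik rose by 2.30 ± 0.27 (SE).

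One gene among the largest rises, Gm45234, is uncertain. It overlaps Grcc10 and Atn1 on the same strand of chromosome 6 (chr6:124739189-124756021), so reads could be shared out among them in more than 1 way. Its level was 16.04, 27.2, 14.7 and 21.8 CPM with AO and 10.2, 0.185, 0 and 5.66 CPM untreated, a log2 difference of 2.53 ± 0.93 (SE) with an adjusted p of 0.0467. The call was lost without E2.5 (adjusted p = 0.188), without E2.6 (0.152), without E2.8 (0.116), with DESeq2 (0.0678) and without the pairing (0.267).

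**Figure D1:**
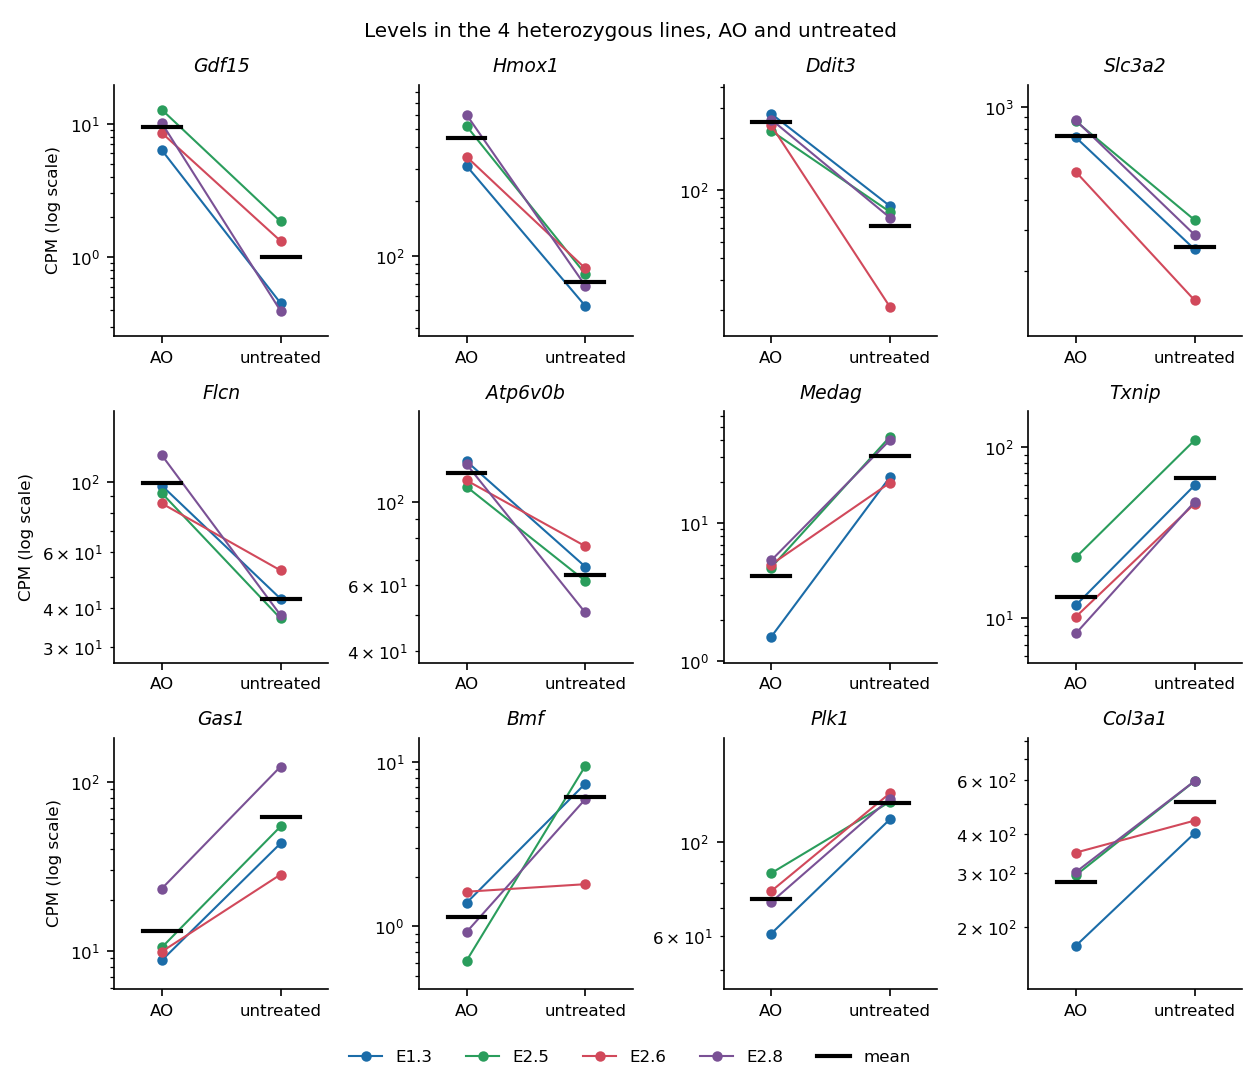
Levels of 12 genes in CPM on a log axis, with the AO library left of the untreated library of each het line; lines join libraries of 1 line and black bars are means (n = 4 lines). Gdf15, Hmox1, Ddit3, Slc3a2, Flcn and Atp6v0b lay higher and the other 6 lower with AO in every line, and Bmf hardly moved in E2.6 (1.62 CPM with AO, 1.80 CPM untreated).

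The 12 largest falls were in genes of varied function. Medag, a gene linked to the formation of fat cells (chr5:149411749-149431723), had 1.5, 4.77, 5.01 and 5.37 CPM in the 4 AO-treated lines, against 21.5, 42.1, 19.6 and 39.9 CPM untreated, a log2 change of -2.88 ± 0.32 (SE) to 13.6% of the untreated level (adjusted p = 2.12e-06). No AO library reached any untreated one. Txnip, an arrestin-domain protein that binds thioredoxin and restrains glucose uptake (chr3:96557957-96561883), had 11.9, 22.6, 10.2 and 8.13 CPM with AO, against 59.5, 109, 46.5 and 47.6 CPM untreated. It changed by -2.33 ± 0.20 (SE) with an adjusted p of 7.55e-08, and again the groups did not overlap. Gas1, a membrane-anchored co-receptor of hedgehog, changed by -2.18 ± 0.15 (SE), and Emilin1, a glycoprotein of elastic fibres, by -2.10 ± 0.13 (SE). Dnm3os, an RNA antisense to Dnm3 that is processed to miRNAs of the miR-199a and miR-214 group, changed by -2.38 ± 0.18 (SE). The library kit keeps strand but the strand setting used for counting is not given, so reads of Dnm3os and Dnm3 cannot be told apart with certainty. Bmf, which binds and blocks pro-survival BCL2 proteins, had 1.39, 0.616, 1.62 and 0.920 CPM with AO and 7.37, 9.43, 1.80 and 5.92 CPM untreated. Its change of -2.34 ± 0.43 (SE) passed with an adjusted p of 3.71e-04 and was -2.96 without E2.6, the line with the lowest untreated level. The other large falls were those of Skida1 (-2.69), 9930012K11Rik (-2.68), Gprin3 (-2.54), C1qtnf1 (-2.23), the pseudokinase gene Trib2 (-2.21) and the protease inhibitor gene Serpinb1a (-2.10).

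Regulators of the integrated stress response were among the lists with the largest median change. Of the 21 tested, 15 rose and 2 fell, and the median log2 change was 0.91, against -0.035 over all genes tested. Without E2.6, 14 rose and 1 fell and the median was 0.70, and without the pairing 9 rose. Atf4, the central transcription factor of this response, had 874, 874, 723 and 879 CPM with AO, against 546, 574, 255 and 497 CPM untreated, a rise of 0.91 ± 0.13 (SE) (adjusted p = 3.37e-05). All AO libraries lay above all untreated ones. Ddit3, which encodes the transcription factor CHOP, had 278, 221, 238 and 258 CPM with AO and 80.8, 74.7, 20.9 and 69.1 CPM untreated and rose by 2.15 ± 0.22 (SE). Atf3, a bZIP factor that is induced by many stresses, rose by 2.77 ± 0.21 (SE), and Ppp1r15a, which brings a phosphatase to eIF2α and so ends the response, rose by 2.35 ± 0.13 (SE). Cebpb (1.22), Cebpg (1.10), Nupr1 (1.08), Jdp2 (1.03), Atf5 (0.88) and Sesn2 (1.12), an inhibitor of mTORC1, rose as well. The kinase genes of eIF2α did not rise: Eif2ak1 fell (-0.24), and Eif2ak2 (-0.22), Eif2ak3 (-0.36) and Eif2ak4 (0.13) did not pass. Oma1, the mitochondrial protease that relays mitochondrial damage to Eif2ak1 by cutting Dele1, fell (-0.60), and Dele1 did not pass (0.17).

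Trib3, a pseudokinase that dampens the response, and Chac1, which degrades glutathione, are targets of ATF4 and CHOP. Their promoter windows (250 bases before to 50 bases after the start of the gene, RefSeq, GRCm38.p6) are shown because both hold the C/EBP-ATF element TGATGNAA, marked in capitals on whichever strand it lies. They lie at chr2:119350992-119351291 on the plus strand and at chr2:152344011-152344310 on the minus strand.
Chac1: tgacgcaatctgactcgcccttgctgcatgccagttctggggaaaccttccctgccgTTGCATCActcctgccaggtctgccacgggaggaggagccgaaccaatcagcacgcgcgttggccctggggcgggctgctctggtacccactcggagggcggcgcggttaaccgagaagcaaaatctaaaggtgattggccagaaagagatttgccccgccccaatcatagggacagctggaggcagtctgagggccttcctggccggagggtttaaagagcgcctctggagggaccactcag
Trib3: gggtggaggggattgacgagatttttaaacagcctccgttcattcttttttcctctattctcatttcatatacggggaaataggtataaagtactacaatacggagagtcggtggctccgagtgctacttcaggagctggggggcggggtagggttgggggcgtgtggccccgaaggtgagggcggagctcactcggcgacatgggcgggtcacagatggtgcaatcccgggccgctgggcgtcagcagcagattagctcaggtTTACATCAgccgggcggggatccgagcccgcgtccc
The element was searched on both strands. It stood in 5 of the 14 windows found for the regulators that rose (35.7%; Atf3, Chac1, Jdp2, Nupr1 and Trib3), in 5 of the 8 for the cytosolic tRNA synthetases that rose (62.5%), in 268 of the 10079 windows of genes tested (2.66%) and in 1219 of all 27025 windows (4.51%). In the amino acid and one-carbon synthesis genes that rose it stood in 2 of 11 windows (18.2%). Over all genes that were called, it stood in 4.1% of windows of genes that rose and in 1.93% of those that fell. A match describes these letters and is no evidence of binding.

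In Trib3 and Chac1, line E2.6 differed from the other het lines before treatment more than after it. Trib3 had 238, 219, 214 and 204 CPM with AO, against 102, 113, 7.92 and 87.6 CPM untreated. Chac1 had 118, 109, 144 and 124 CPM with AO, against 47.1, 57.1, 3.36 and 41.7 CPM untreated. For both genes the E2.6 library was within or above the range of the other lines with AO and far below it untreated. Trib3 rose by 1.96 ± 0.41 (SE) over the 4 lines (adjusted p = 0.00136) and by 1.12 ± 0.12 (SE) without E2.6, while without the pairing it did not pass (adjusted p = 0.0788). Chac1 rose by 1.98 ± 0.38 (SE) (adjusted p = 5.58e-04) and by 1.27 ± 0.18 (SE) without E2.6. Aldh1l2, a mitochondrial folate enzyme, had 382.9, 369.8, 124.0 and 349.3 CPM with AO and 292.3, 315.2, 26.2 and 236.4 CPM untreated, so that in E2.6 it was low in both states. Untreated E2.6 was the lowest of the 10 untreated lines in 15 of 21 stress-response regulators, 16 of 17 genes of amino acid and one-carbon synthesis, 11 of 13 amino acid transporters and 15 of 20 cytosolic tRNA synthetases, and in 16.1% of all genes tested. With AO, E2.6 was the lowest of the 10 lines in 8, 14, 5 and 11 of these genes and in 14.8% of all genes tested. Among the 4 het lines alone the ranks moved less. There E2.6 was the lowest in 18, 16, 12 and 15 of these genes untreated (31.35% of all genes tested). With AO it was the lowest het line in 14, 16, 11 and 14 of them (33.44% of all genes tested). This pattern was noticed after the values were seen, and why E2.6 differed was not tested.

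**Figure D2:**
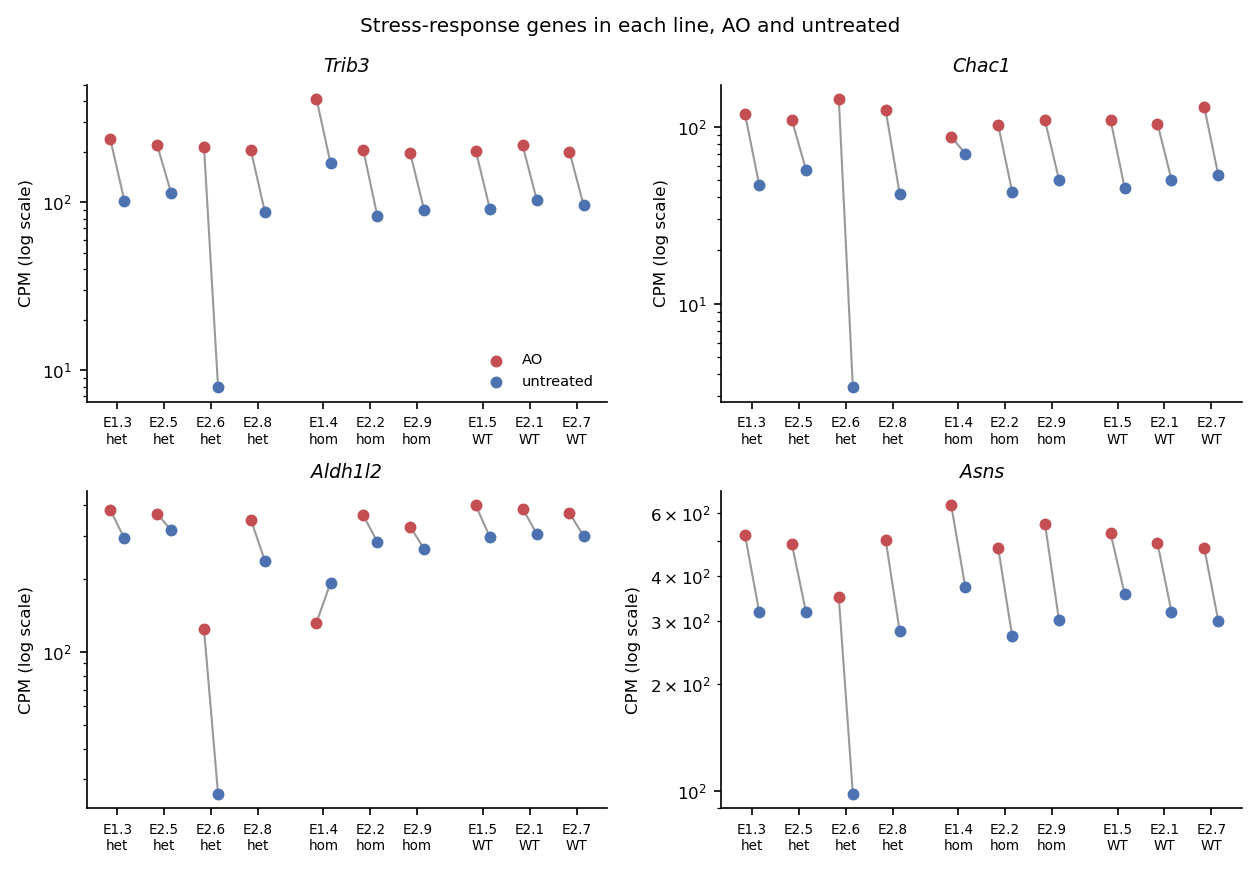
Levels of Trib3, Chac1, Aldh1l2 and Asns in CPM on a log axis, with AO (red) left of untreated (blue) in each of the 10 lines, het lines first. Untreated E2.6 had 7.92 CPM of Trib3 and 3.36 CPM of Chac1, below all other untreated lines, while its AO libraries had 213.9 and 143.7 CPM.

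Genes that supply amino acids rose together with these regulators. In amino acid and one-carbon synthesis 13 of 17 rose and none fell (median 0.54; 11 rose and 1 fell without E2.6; 4 rose without the pairing). Asns, asparagine synthetase, had 519.8, 490.4, 349 and 505 CPM with AO and 318, 317, 98.3 and 280.3 CPM untreated. It rose by 1.02 ± 0.14 (SE) with an adjusted p of 1.74e-05, and E2.6 was the lowest line in both states. Mthfd2, a mitochondrial enzyme of folate metabolism, rose by 1.24 ± 0.13 (SE), Got1, an aspartate aminotransferase, by 1.19 ± 0.10 (SE), and Cth, which makes cysteine, by 0.999. The serine-synthesis genes Psph (0.92), Psat1 (0.52) and Phgdh (0.46) rose too. The proline-synthesis gene Pycr1 (0.042) did not pass.

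Among amino acid transporters 10 of 13 rose and 2 fell, with a median of 1.19 (10 rose and 2 fell, median 0.94, without E2.6; 6 rose without the pairing). Slc3a2, the heavy chain shared by several exchangers, had 739.7, 867, 528 and 874 CPM with AO and 248, 330, 151 and 286 CPM untreated. The rise was 1.60 ± 0.091 (SE) with an adjusted p of 7.86e-10, and the groups did not overlap. Slc7a11, the cystine carrier that pairs with Slc3a2, rose by 1.79 ± 0.24 (SE), Slc7a1, a carrier of cationic amino acids, by 1.61 ± 0.18 (SE), and Slc7a5, a carrier of large neutral amino acids, by 1.19. The facilitative carriers Slc43a1 (-1.06) and Slc43a2 (-0.84) fell.

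Synthetases that load tRNAs split by compartment. In the cytosolic list 14 of 20 rose and 1 fell (median 0.51; 13 and 1 without E2.6; 12 and 0 without the pairing), led by Yars (0.95 ± 0.076 (SE)), Sars (0.92 ± 0.075 (SE)) and Nars (0.86 ± 0.072 (SE)). Qars fell (-0.30), and Dars, Farsa, Hars, Kars and Vars did not pass. In the mitochondrial list 1 of 17 rose and 4 fell (median -0.056; 1 and 5 without E2.6). The difference between both lists was not tested.

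Both mitochondrial stress cytokines that were tested rose. Fgf21, a hormone that acts on metabolism, had 0.923, 2.77, 1.03 and 3.22 CPM with AO and 0.902, 0.739, 0 and 0.395 CPM untreated, levels of a few counts that hardly differ in E1.3. Its rise was 1.98 ± 0.54 (SE) (adjusted p = 0.00873). It did not pass without E2.8 (adjusted p = 0.115) or without the pairing (0.0698). Targets of the antioxidant factor NRF2, Hmox1 among them, did not move one way: 4 of 22 rose and 5 fell (median 0.064; 3 and 5 without E2.6, 3 and 1 without the pairing). Slc7a11, Txnrd1 (0.71), a thioredoxin reductase, and Gclc (0.47), of glutathione synthesis, rose. Nqo1, a quinone reductase (-0.32), Gstm1 (-0.71) and G6pdx (-0.52) fell, and Gclm (0.049) and Srxn1 (0.27) did not pass.

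Of 16 mitophagy receptors and regulators 4 rose and 1 fell (median 0.16; 3 and 0 without E2.6). Sqstm1, which encodes the receptor p62, had 988, 1252, 754 and 916 CPM with AO, against 438, 437, 329 and 299 CPM untreated. It rose by 1.38 ± 0.10 (SE), with an adjusted p of 2.11e-08, and no library of one group fell into the range of the other. Optn, which encodes the receptor optineurin, had 32.2, 33.9, 23.9 and 28.7 CPM with AO and 19.6, 20.5, 13.3 and 17.4 CPM untreated. Its rise of 0.75 ± 0.11 (SE) had an adjusted p of 4.55e-05. Tbk1 itself had 72.2, 71.9, 56.6 and 69.2 CPM with AO and 47.8, 48.1, 49.5 and 49.7 CPM untreated and rose by 0.46 ± 0.11 (SE) (adjusted p = 0.00352), and the AO libraries lay above all untreated ones. Counts per gene do not separate the N129D from the normal allele. The receptors Tax1bp1 (0.077 ± 0.059 (SE), adjusted p = 0.368) and Nbr1 (0.20 ± 0.12 (SE), adjusted p = 0.25) did not pass. In fits on het libraries alone Nbr1 passed, with an adjusted p of 0.0341 on 12 libraries and 0.0183 on the 8 compared. Pink1, the kinase that marks damaged mitochondria, changed by -0.057 ± 0.12 (SE) (adjusted p = 0.776), and Bnip3 (-0.075), Bnip3l (-0.11) and Phb2 (-0.079) did not pass either.

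In the core autophagy machinery 9 of 32 genes rose and 5 fell (median 0.11; 9 and 5 without E2.6, 6 and 2 without E1.3, 3 and 2 without E2.8, 4 and 2 without the pairing). Uvrag, of the class III lipid kinase complex that forms and matures autophagosomes, rose by 0.97 ± 0.12 (SE). The ATG8 family members Gabarapl1 (0.68) and Map1lc3b (0.28) and the conjugation gene Atg12 (0.50 ± 0.073 (SE)) rose, while Pik3r4 (-0.59 ± 0.096 (SE)) and Pik3c3 (-0.35), of the same lipid kinase, and Ulk2 (-0.49), a kinase that starts autophagy, fell.

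Among the lysosomal lists, most subunits of the proton pump and part of the nutrient-sensing and hydrolase genes rose. Among folliculin, Rag GTPase and TFEB family genes 7 of 15 rose and none fell (median 0.22; 6 and 0 without E2.6). Flcn, folliculin, which acts on the Rag GTPases that tether mTORC1 and TFE3 to lysosomes, had 97.4, 92.2, 85.5 and 122 CPM with AO and 42.7, 37.0, 52.5 and 37.9 CPM untreated. The rise was 1.23 ± 0.12 (SE) with an adjusted p of 3.34e-07, with no overlap between the groups. Its partners Fnip1 (1.32) and Fnip2 (1.47 ± 0.16 (SE)) and the GTPases Rragc (0.94 ± 0.11 (SE)) and Rragd (0.67 ± 0.16 (SE)) rose, while Rraga (-0.035) and Tfeb (0.062) did not pass. Of 15 subunits of the lysosomal proton pump 13 rose and none fell (median 0.44; 12 without E2.6, 7 without the pairing). Atp6v0b, of the membrane sector, had 128.7, 110, 114 and 126 CPM with AO and 67.2, 61.6, 76.2 and 50.7 CPM untreated, a rise of 0.92 ± 0.097 (SE), and Atp6v1b2 and Atp6v1h of the catalytic sector rose by 0.89 ± 0.090 (SE) and 0.74 ± 0.079 (SE). Among lysosomal hydrolases and membrane proteins 13 of 25 rose and none fell (median 0.23; 13 and 1 without E2.6, 7 and 0 without E2.8, 4 and 0 without the pairing). Neu1, a sialidase (0.87 ± 0.12 (SE)), Npc1, which exports cholesterol (0.76 ± 0.13 (SE)), and Mcoln1, a calcium channel (0.63 ± 0.11 (SE)), led them. The proteases Ctsb (0.17) and Ctsd (0.14) did not pass.

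The windows of Rragc (chr4:123917183-123917482, plus strand) and Mcoln1 (chr8:3500269-3500568, plus strand) are shown because they hold the E-box CACGTG, in capitals, which factors of the TFEB family and others bind.
Rragc: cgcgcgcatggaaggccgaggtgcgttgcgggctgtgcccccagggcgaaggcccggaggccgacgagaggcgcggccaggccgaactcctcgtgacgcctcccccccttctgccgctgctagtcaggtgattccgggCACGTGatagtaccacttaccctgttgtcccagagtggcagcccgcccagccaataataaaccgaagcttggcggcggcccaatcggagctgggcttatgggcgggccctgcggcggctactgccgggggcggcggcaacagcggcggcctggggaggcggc
Mcoln1: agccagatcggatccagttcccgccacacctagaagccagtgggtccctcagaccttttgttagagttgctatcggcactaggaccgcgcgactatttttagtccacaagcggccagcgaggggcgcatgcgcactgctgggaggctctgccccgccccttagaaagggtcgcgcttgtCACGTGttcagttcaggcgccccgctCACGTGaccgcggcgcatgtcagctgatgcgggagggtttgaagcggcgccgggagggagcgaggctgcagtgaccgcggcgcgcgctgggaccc
CACGTG reads the same on both strands. It stood in 6 of 10 windows of the hydrolases and membrane proteins that rose (60.0%; Ctsa, Ctsl, Gaa, Gla, Lamp1 and Mcoln1), in 3 of 9 of the proton pump (33.3%) and in 2 of 6 of the folliculin group (33.3%), against 1188 of 10079 windows of genes tested (11.8%). Genes that rose in other lists held it more often than the proton pump and folliculin lists: it stood in 4 of 8 windows of the cytosolic tRNA synthetases, 6 of 13 of the immediate-early genes (46.2%) and 4 of 11 of the ribosome biogenesis genes (36.4%). Over all genes that were called, it stood in 18.7% of windows of genes that rose and in 8.04% of those that fell.

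Genes of G2 and mitosis fell. Of 32 tested, 24 fell and none rose, with a median of -0.39 (20 fell without E2.6; 14 without the pairing). The median change lay between -0.43 and -0.34 in each of the 4 lines. Plk1, a kinase of mitotic entry and exit, had 60.8, 84.3, 76.5 and 72.1 CPM with AO and 113, 124, 129.9 and 126 CPM untreated. Its change of -0.75 ± 0.076 (SE) had an adjusted p of 7.11e-07, and no AO library reached the untreated range. Kif2c, a motor that corrects attachment of chromosomes to the spindle, changed by -0.80 ± 0.080 (SE) and Ccna2, cyclin A2, by -0.49 ± 0.056 (SE). The fall of Ccnb1, cyclin B1, was smaller (-0.28 ± 0.075 (SE)). Bub1 (-0.008), Birc5 (-0.10) and Nek2 (0.024) did not pass.

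The Plk1 window (chr7:122159185-122159484, plus strand) is shown because it holds the cell cycle homology element TTTGAA, in capitals.
Plk1: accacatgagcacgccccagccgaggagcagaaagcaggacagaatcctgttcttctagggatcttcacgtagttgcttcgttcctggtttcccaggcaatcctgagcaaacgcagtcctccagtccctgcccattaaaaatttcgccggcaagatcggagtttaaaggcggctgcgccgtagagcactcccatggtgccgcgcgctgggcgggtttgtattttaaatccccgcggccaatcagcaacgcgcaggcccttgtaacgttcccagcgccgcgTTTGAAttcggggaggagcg
TTTGAA, searched on both strands, stood in 15 of 20 windows of the G2 and mitosis genes that fell (75.0%) and CCAAT in 17 of 20 (85.0%). In the genes tested the shares were 14.2% for TTTGAA and 43.4% for CCAAT.

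Genes of DNA replication did not share this fall: 7 of 30 rose and 5 fell (median 0.094; 6 and 4 without E2.6). Cdt1, which licenses origins, rose (0.64 ± 0.11 (SE)), Rrm2, of ribonucleotide reductase, fell (-0.43 ± 0.063 (SE)), and Pcna (0.15) and Mcm2 (0.15) did not pass. The numbers that rose were 3 without E1.3, 4 without E2.5 and 3 without E2.8.

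Among p53 targets 9 of 22 rose and 5 fell (median 0.28; 9 and 3 without E2.6, 7 and 2 without E1.3 or E2.5, 6 and 2 without E2.8, 3 and 0 without the pairing). Beside Gadd45a, the kinase gene Plk3 (1.54 ± 0.15 (SE)) and the BH3-only genes Pmaip1 (0.75) and Bbc3 (0.54) rose. Cdkn1a, which encodes the cell-cycle inhibitor p21, had 67.5, 76.2, 201 and 93.4 CPM with AO and 48.6, 56.4, 192 and 47.4 CPM untreated. Its rise of 0.48 ± 0.12 (SE) (adjusted p = 0.00495) was small beside the excess of E2.6 over the other lines, and it did not pass without E2.8 (adjusted p = 0.0817) or without the pairing (0.710). Phlda3 (-0.88), Sesn1 (-0.47) and Ccng1 (-0.27) fell. In the BCL2 family 4 of 15 rose and 5 fell (median 0.039; 4 and 4 without E2.6, 2 and 3 without E1.3, 2 and 4 without E2.5, 2 and 2 without the pairing). Hrk, another BH3-only gene, rose by 2.61 ± 0.52 (SE), and Bcl2l11, which encodes BIM, fell like Bmf (-0.87). Bok, a pore-forming relative of Bax, changed by -0.90 ± 0.17 (SE). The pro-survival genes Mcl1 (0.028), Bcl2l1 (0.095) and Bcl2 (-0.17) did not pass.

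Glucose-related genes moved in both directions. Of 11 genes of the Txnip, arrestin-domain and glucose transport list, 2 rose and 2 fell (1 and 2 without E2.6, 0 and 2 without E2.5, E2.8 or the pairing). Arrdc3, another arrestin-domain gene, fell with Txnip (-1.20 ± 0.20 (SE)), and their paralog Arrdc4 did not pass (-0.51 ± 0.24 (SE), adjusted p = 0.123). Slc2a1, the main glucose transporter of fibroblasts, changed by 0.32 ± 0.11 (SE) (adjusted p = 0.0391) and lost its call without E2.5 (0.221), E2.6 (0.123) or E2.8 (0.127). Of 20 glycolytic genes 4 rose and 7 fell (median -0.18; 4 and 5 without E2.6, 3 and 4 without E1.3 or E2.5, 4 and 4 without E2.8, 3 and 2 without the pairing). Eno2, an enolase, rose (1.19 ± 0.16 (SE)), as did Hk2, hexokinase 2 (0.79), and the lactate carrier Slc16a1 (0.74 ± 0.079 (SE)). The lactate carrier Slc16a3 (-0.95), Aldoc (-0.94) and Pfkm (-0.60 ± 0.099 (SE)) fell, and Ldha (-0.22), Gapdh (-0.16) and Pkm (-0.16) did not pass. Hypoxia-response genes were divided too, with 4 of 19 higher and 6 lower (median -0.056; 5 and 4 without E2.6, 3 and 2 without the pairing). Vegfa, the vascular growth factor, had 237, 319.6, 147 and 266 CPM with AO and 108, 125, 35.7 and 95.0 CPM untreated and rose by 1.497 ± 0.12 (SE), and Ndrg1 rose by 1.20 ± 0.11 (SE). Pdk1 (-0.53), which limits entry of pyruvate into mitochondria, Egln3 (-0.52) and Adm (-0.73) fell, and Bnip3 did not pass.

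The respiratory chain that AO blocks showed little change in mRNA. In the model over 30 libraries, none of 50 nuclear genes of oxidative phosphorylation passed in edgeR in either direction, and their median was -0.052. The smallest p-values among them were those of Atp5k (-0.42 ± 0.18 (SE), adjusted p = 0.0804) and Sdhd (-0.24 ± 0.10 (SE), adjusted p = 0.0908). Atp5k passed on the 12 het libraries alone (adjusted p = 0.00235), on the 8 compared (9.68e-04) and with no filter on low counts (0.00562), and Sdhd passed on the 12 (0.0322) and on the 8 (0.01597). Of 13 mRNAs encoded in mitochondrial DNA 3 fell, all for subunits of complex I. mt-Nd1 had 419, 468, 723 and 537 CPM with AO and 579, 682, 1001 and 729.5 CPM untreated, a change of -0.48 ± 0.094 (SE). It was lower with AO in every line, although the ranges overlap. mt-Nd5 (-0.45 ± 0.12 (SE)) and mt-Nd6 (-0.54 ± 0.19 (SE)) fell as well, but both lost their call without E2.5 or E2.8, mt-Nd6 also without E1.3, and none of the 3 passed without the pairing. mt-Co1 (0.27), mt-Cytb (0.13) and mt-Atp6 (-0.050) did not pass.

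Among mitochondrial chaperones and proteases 4 of 17 rose and 1 fell (median 0.12; 5 and 1 without E2.6). Lonp1, a matrix protease (0.72 ± 0.064 (SE)), Hspa9, the matrix HSP70 (0.66 ± 0.064 (SE)), and its exchange factor Grpel2 (0.80 ± 0.094 (SE)) rose, while the matrix chaperonin genes Hspd1 (0.15) and Hspe1 (0.18) did not pass. Of 20 genes of mitochondrial dynamics and biogenesis 7 rose and none fell (median 0.17; 7 and 0 without E2.6, 3 and 0 without E1.3, 5 and 1 without E2.5). These held Pprc1, a coactivator of the PGC-1 family (0.53 ± 0.074 (SE)), the mitochondrial DNA packaging factor Tfam (0.41 ± 0.072 (SE)) and the fission gene Dnm1l (0.24).

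In the unfolded protein response of the endoplasmic reticulum 6 of 25 genes rose and 1 fell (median 0.008; 6 and 2 without E2.6). Herpud1, of the degradation machinery, rose by 1.55 ± 0.17 (SE), Dnajb9, a co-chaperone, by 1.10 ± 0.094 (SE) and Hspa5, the chaperone BiP, by 0.58 ± 0.076 (SE). Hsp90b1 (0.007), Pdia4 (-0.20), Manf (0.008) and Hyou1 (-0.021) did not pass. Cytosolic heat shock genes were nearly even, with 2 of 16 higher and 2 lower (5 and 3 without E2.6, 0 and 1 without E2.8). Cholesterol genes had 3 of 24 higher and 3 lower, and 9 higher and 1 lower without E2.6, whose median change was -0.34 in that list, against 0.093 to 0.40 in the other lines. Msmo1, a sterol oxidase, had 418, 317, 132 and 535 CPM with AO and 202, 169, 97.4 and 210.3 CPM untreated and rose by 0.94 ± 0.10 (SE), with AO above untreated in each line.

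Part of the genes of ribosome assembly and most hosts of small nucleolar RNAs rose. In the list of ribosome biogenesis with Myc 14 of 30 rose and none fell (median 0.27; 16 without E2.6, 9 without each of the other lines in turn, 8 without the pairing). Myc, a transcription factor that drives growth, had 336, 369, 228 and 372 CPM with AO and 138, 159.7, 112 and 149 CPM untreated. The rise of 1.21 ± 0.11 (SE) had an adjusted p of 1.25e-07, and the groups did not overlap. Wdr43 (0.56 ± 0.085 (SE)) and Nop58 (0.53 ± 0.067 (SE)), of the assembly of the small subunit and of box C/D particles, were among the others. Of 13 snoRNA host genes 9 rose and none fell (median 0.57; 7 without E2.6, 5 without the pairing). Snhg12 had 94.7, 59.7, 77.0 and 87.7 CPM with AO and 21.1, 18.5, 15.97 and 29.9 CPM untreated, a rise of 1.91 ± 0.18 (SE), followed by Snhg1 (1.24 ± 0.20 (SE)).

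Immediate-early genes rose in 16 of 27 cases and none fell (median 0.58; 17 without E2.6, 10 without the pairing). After Atf3 came Maff (1.53), Csrnp1 (1.21 ± 0.14 (SE)), Klf4 (1.15 ± 0.15 (SE)) and Egr1 (1.01), while Fos (0.38) and Jun (0.10) did not pass. Of 16 feedback genes of MAP kinases 8 rose and 1 fell (8 and 1 without E2.6, 5 and 1 without E2.8), with the phosphatase genes Dusp8 (1.11 ± 0.14 (SE)) and Dusp5 (0.88 ± 0.14 (SE)) among them. Among NF-kB and inflammatory genes 10 of 30 rose and 1 fell (median 0.47; 13 and 1 without E2.6, 6 and 1 without E1.3 or E2.5, 4 and 1 without E2.8). Lif, a cytokine of the Il6 family, had 38.1, 93.7, 17.1 and 80.8 CPM with AO and 10.98, 15.9, 8.77 and 16.1 CPM untreated and rose by 1.99 ± 0.25 (SE), with the widest rise in E2.5. Ptgs2, cyclooxygenase 2 (1.003 ± 0.13 (SE)), and Cxcl2 (3.35 ± 0.82 (SE)), a chemokine at under 2 CPM on average in both groups, rose as well. Nfkbia (0.54), Tnfaip3 (0.46) and Il6 (0.97) did not pass.

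Interferon-stimulated genes did not rise with AO in het lines: none of 42 was higher and 4 were lower (4 without E2.6; 1 without E1.3 or E2.5; 0 without the pairing). Irgm1, an immunity-related GTPase, had 77.5, 191, 30.1 and 29.9 CPM with AO and 134, 336, 54.6 and 47.5 CPM untreated, with E2.5 far above the other lines in both states, and changed by -0.79 ± 0.24 (SE) (adjusted p = 0.0177). The call of Irgm1 was lost without E1.3 (adjusted p = 0.0704), without E2.5 (0.0713) and without the pairing (0.50). Cxcl10, a chemokine that interferon and NF-kB both induce, rose by 0.91 ± 0.27 (SE) with an adjusted p of 0.0171. That call was lost without E1.3 (0.105), without E2.8 (0.066) and without the pairing (0.383). Ifnb1, interferon β, had 2, 2, 2 and 0 counts with AO, against 0 counts in all 4 untreated libraries, and did not pass (adjusted p = 0.0845), although it passed when no filter on low counts was used (adjusted p = 0.0426).

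Fibroblast matrix and cytoskeleton genes fell in part. Of 32 extracellular matrix genes 10 fell and none rose (median -0.16; 11 without E2.6, 3 without E1.3, 5 without E2.5 or E2.8, 0 without the pairing). Col3a1, a fibrillar collagen, had 174, 294, 348 and 301 CPM with AO and 402, 593, 442 and 593 CPM untreated. It changed by -0.87 ± 0.14 (SE) with an adjusted p of 8.56e-05, and it was lower with AO in every line. Col1a2 (-0.60 ± 0.097 (SE)) and the membrane protease gene Mmp14 (-0.38 ± 0.091 (SE)) fell. Among targets of SRF and YAP and actin genes 2 of 21 rose and 8 fell (median -0.31; 2 and 9 without E2.6, 1 and 1 without the pairing), with Vcl, vinculin (-0.57 ± 0.097 (SE)), Cnn2 (-0.53 ± 0.098 (SE)) and Actb (-0.75) lower and Cyr61 (0.47) higher. Markers of several other cell types were lower with AO too, mesenchymal or not. Smooth muscle markers summed to 1485, 2390, 3681 and 1741 CPM with AO, against 2115, 2932, 4020 and 2277 CPM untreated. Chondrocyte markers summed to 53.5, 57.4, 191.5 and 120.8 CPM with AO, against 81.2, 81.3, 232 and 158.9 CPM untreated. Neural and glial markers summed to 65.2, 60.0, 85.4 and 84.7 CPM with AO, against 98.5, 100.7, 90.7 and 107.2 CPM untreated. Acta2, Actg2, Tagln and Cnn1 are both smooth muscle markers and members of the actin list. All 8 smooth muscle markers had counts in both groups, and 8 of 9 chondrocyte markers had counts with AO. The smooth muscle, chondrocyte, neural and glial, and macrophage sums were lower with AO in each line, while endothelial sums were higher in each line. Their part in the falls of matrix and actin genes was not tested.

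In the hedgehog pathway 6 of 11 fell and none rose (median -0.38; 4 without E2.6, 3 without E1.3 or E2.8, 4 without E2.5 or the pairing). Gas1 had 8.77, 10.5, 9.88 and 23.3 CPM with AO and 43.2, 54.4, 28.2 and 123 CPM untreated, and the groups did not overlap although E2.8 was the highest line in both. Gli2, a transcription factor of the pathway, had 11.7, 6.16, 12.5 and 12.6 CPM with AO and 22.6, 13.5, 23.9 and 25.9 CPM untreated and changed by -1.01 ± 0.17 (SE). Ptch1, the receptor and itself a target, fell (-0.46). Among Id genes and genes of SMAD feedback 2 of 13 rose and 6 fell (median -0.32; 2 and 6 without E2.6, 1 and 2 without the pairing). Id1 (-0.86), Id2 (-0.92), Id3 (-0.85) and Id4 (-1.16 ± 0.18 (SE)), which block bHLH factors, fell, as did Bmp4 (-0.96) and the inhibitory Smad6 (-1.12 ± 0.21 (SE)), while the BMP antagonist Grem1 rose (0.66 ± 0.10 (SE)). In the aryl hydrocarbon receptor pathway 4 of 7 rose and 1 fell (3 and 1 without E2.6, 2 and 0 without E2.8, 1 and 0 without the pairing). Cyp1a1, the classical target, had 2.42, 3.38, 11.6 and 6.29 CPM with AO and 0.1504, 0.555, 4.44 and 0.921 CPM untreated. Its change was 2.17 ± 0.54 (SE) and 2.87 without E2.6, the line with the highest level in both states. Cyp1a1 was among the 12 largest rises but did not pass without the pairing (adjusted p = 0.228). Tiparp, a target that feeds back on the receptor, rose by 1.48 ± 0.19 (SE).

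**Figure D3:**
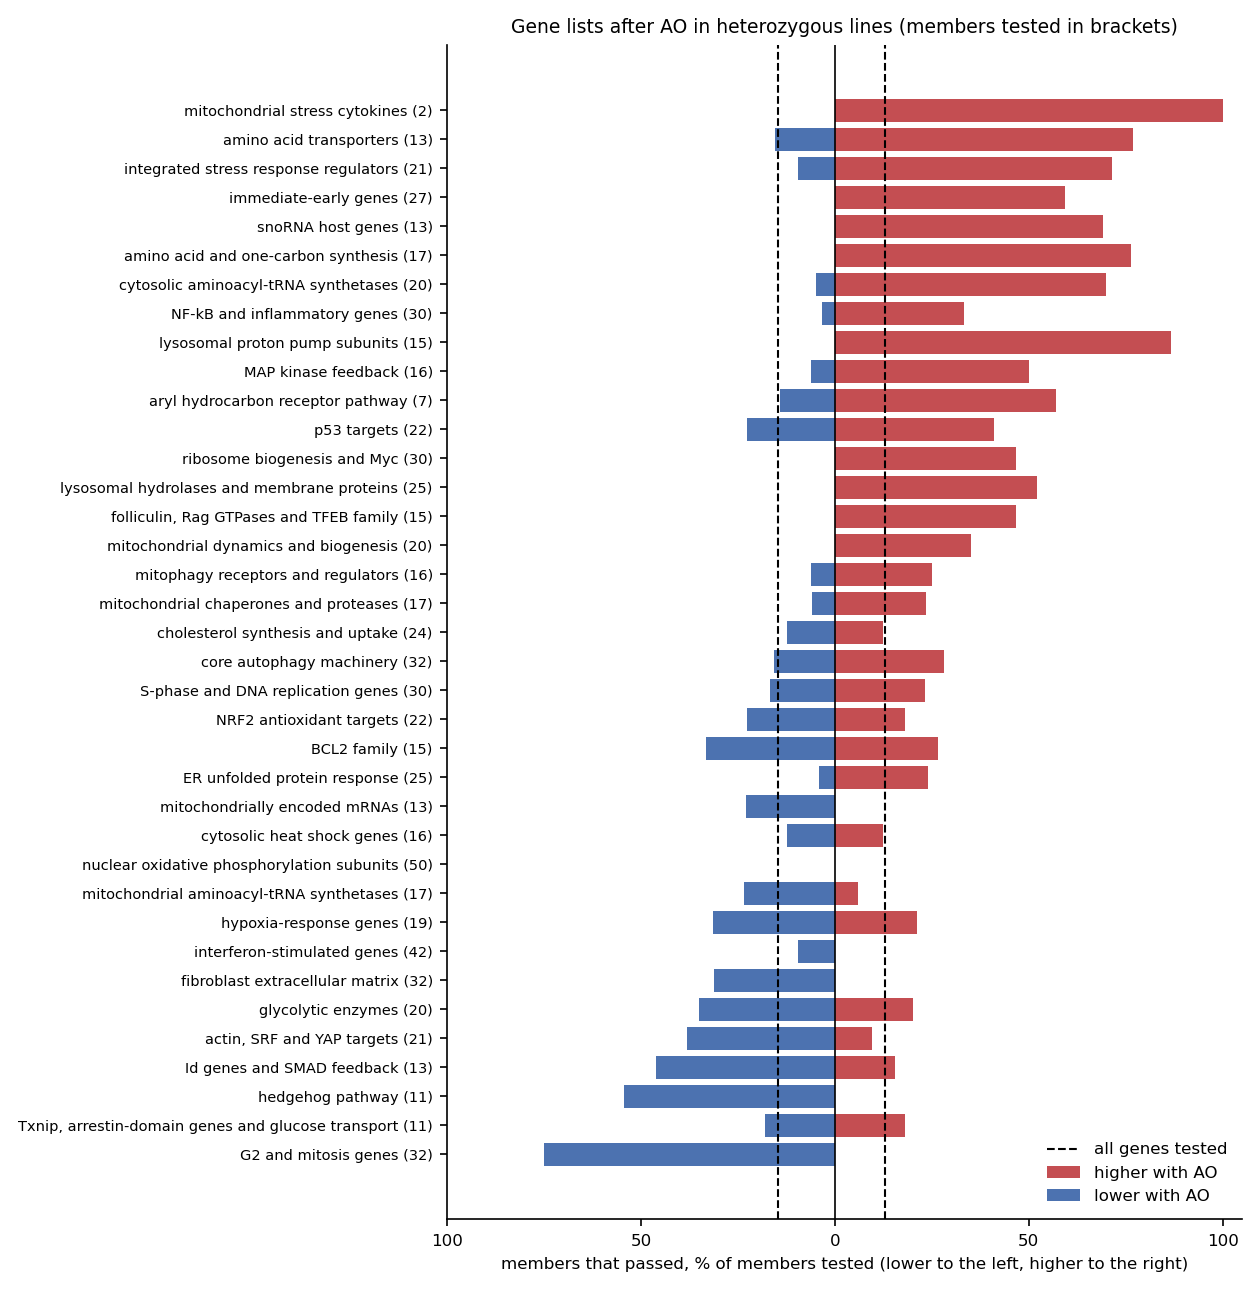
Share of the members tested in each gene list that were higher (red, to the right) or lower (blue, to the left) with AO in het lines at an adjusted p under 0.05, ordered by median log2 change, with dashed lines at the shares over all genes tested (12.9% higher, 14.6% lower). Proton pump subunits lie far to the right with 13 of 15 higher, G2 and mitosis genes far to the left with 24 of 32 lower, and nuclear oxidative phosphorylation genes have no bar.

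The 4 het lines were compared gene by gene and list by list. Across the 13364 genes, the changes of 2 lines correlated with a Pearson r of 0.574 to 0.593 for pairs without E2.6 and 0.423 to 0.477 for pairs with it. This is across genes, which are not replicates. Median changes of the folliculin group lay between 0.29 and 0.32. The widest spreads were in the 2 stress cytokines (1.59 to 3.13), amino acid transporters (1.81 in E2.6 and 0.78 to 1.06 in the other lines), stress-response regulators (1.504 in E2.6 and 0.59 to 0.84 in the others), amino acid and one-carbon synthesis (1.18 in E2.6 and 0.27 to 0.56 in the others) and immediate-early genes (0.26 in E2.6 and 0.49 to 0.997 in the others). E2.6 also lay lowest for cholesterol genes (-0.34), MAP kinase feedback (0.072, against 0.28 to 0.81 in the others) and NF-kB genes (0.024, against 0.40 to 0.64). In proton pump, ribosome and p53 lists E2.6 was again the lowest, with 0.27, 0.12 and 0.070. For the genes with the largest changes, the widest ranges over lines were those of Gm45234, with log2 changes of 0.63 to 5.83, Bmf, with -3.41 to -0.13, and Cass4, with 1.54 to 4.02.

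**Figure D4:**
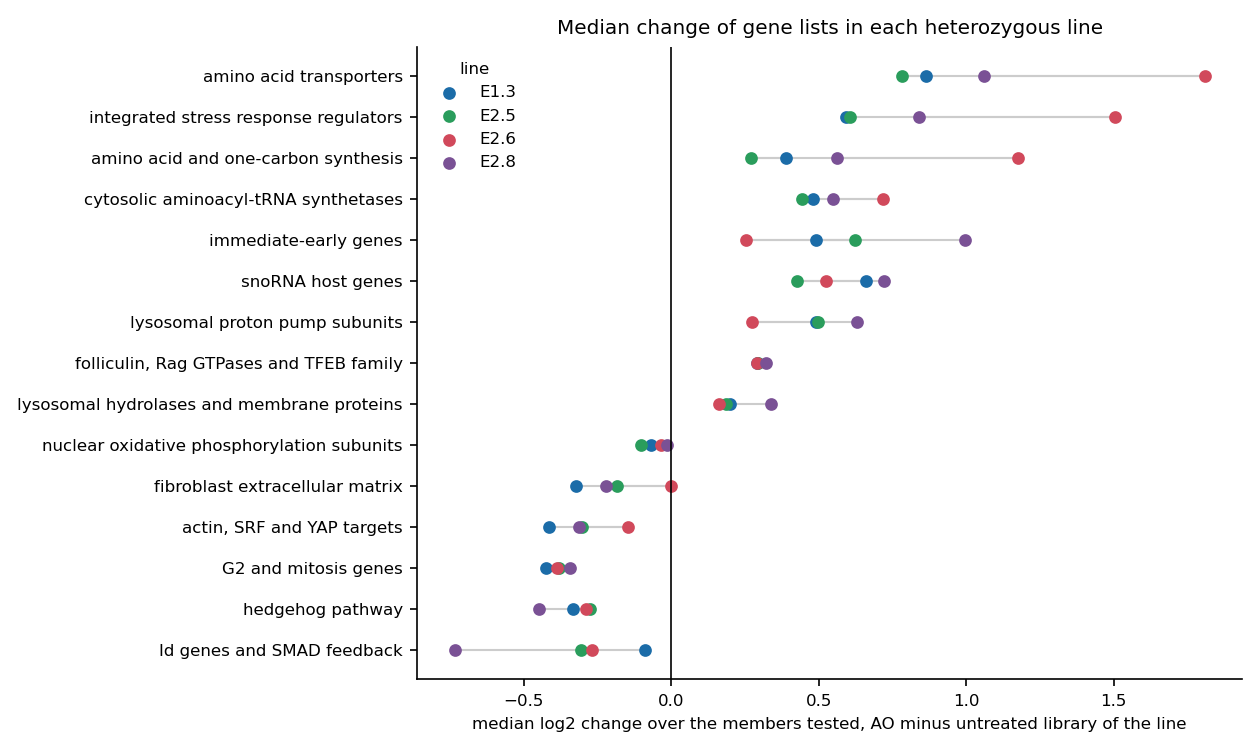
Median log2 change (AO minus untreated library of the same line) over the members tested of 15 gene lists, 1 point for each het line. E2.6 lies to the right of the other lines in the 4 amino acid and stress lists at the top and near 0 for matrix genes, while G2 and mitosis genes fall by a similar amount in each line.

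The response in het lines was set against that in the lines with 2 copies or no copy of N129D. No gene passed for the het response minus the WT response in edgeR (0.0% of 13364), where 136 had an unadjusted p under 0.05, or 1.02%; DESeq2 called 1. No gene passed for the het response minus the hom response (0.0%), where 502 had an unadjusted p under 0.05, or 3.76%, and DESeq2 again called 1. With no filter on low counts, 24 and 39 genes passed. At 4 against 3 lines the SE of the difference was 0.18 at the median over the 136 named genes for WT and likewise for hom, which sets the size of difference that these lines can show. The difference for Gdf15 was 0.23 ± 0.59 (SE) from WT and 0.039 ± 0.51 (SE) from hom. For Tbk1 it was -0.13 ± 0.17 (SE) from WT and -0.11 ± 0.17 (SE) from hom. Atp6v0b rose by 0.92 ± 0.097 (SE) in het, 1.28 ± 0.11 (SE) in hom and 1.13 ± 0.11 (SE) in WT lines, and Ndrg1 by 1.20 ± 0.11 (SE), 0.73 ± 0.12 (SE) in hom and 0.88 ± 0.12 (SE) in WT lines. Both had an unadjusted p under 0.05 for het minus hom, as did Gm45234, Gas1, Plk1, Col3a1, Col1a2 and Grem1, and none passed after adjustment (adjusted p = 0.953). These were 8 of the 136 named genes, against 3.76% of all genes tested at the same cut. The named genes were chosen in part by their change in het lines, and some unchanged genes reach such a cut by chance. For Gm45234, which was named for its rise in het lines, the sign differed: 2.53 in het, -1.67 in hom and -0.73 in WT lines. Its level was uneven in hom lines, with 0 to 12.8 CPM with AO and 0 to 33.5 CPM untreated. In WT lines it was 0.3885 to 13.8 CPM with AO and 6.83 to 22.4 CPM untreated.

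Of the 3671 genes called in het lines, 2557 were called in the same direction in WT lines, which is 69.7% of the het calls and 83.7% of the 3055 WT calls (22.9% of genes tested; 11.2% higher and 11.7% lower). In hom lines 2743 were called in the same direction, 74.7% of the het calls and 69.2% of the 3965 hom calls (29.7% of genes tested; 1954 higher and 2011 lower). No gene was called in opposite directions. The groups differ in number of lines, and with it in what each test can detect. By list, 15 stress-response regulators rose in het, 12 in hom and 13 in WT lines, 13 proton pump subunits rose in het, 13 in hom and 11 in WT lines, and 24 G2 and mitosis genes fell in het, 20 in hom and 19 in WT lines. Other lists had less even values. In amino acid and one-carbon synthesis 13 genes rose in het, 8 in hom and 8 in WT lines, with medians of 0.54 in het, 0.35 in hom and 0.41 in WT lines. Without E2.6 the het values were 11 genes and a median of 0.40. No nuclear oxidative phosphorylation gene rose in het, 3 rose in hom and none in WT lines, with median changes of -0.052 in het, 0.20 in hom and -0.013 in WT lines. The snoRNA hosts had medians of 0.57 in het, 0.97 in hom and 0.48 in WT lines, and matrix genes, of which 10 fell in het, 16 in hom and 9 in WT lines, had -0.16 in het, -0.40 in hom and -0.24 in WT lines. Mitochondrially encoded mRNAs had medians of -0.037 in het, -0.31 in hom and -0.10 in WT lines. These differences between lists' medians were not tested. Hom AO libraries were unequal for some members: Snhg12 had 69.9 to 238.6 CPM there, Snhg1 176 to 628 CPM and Atp5k 40.2 to 112.6 CPM. In het AO libraries the same genes had 59.7 to 94.7, 167 to 255 and 38.9 to 51.4 CPM.

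**Figure D5:**
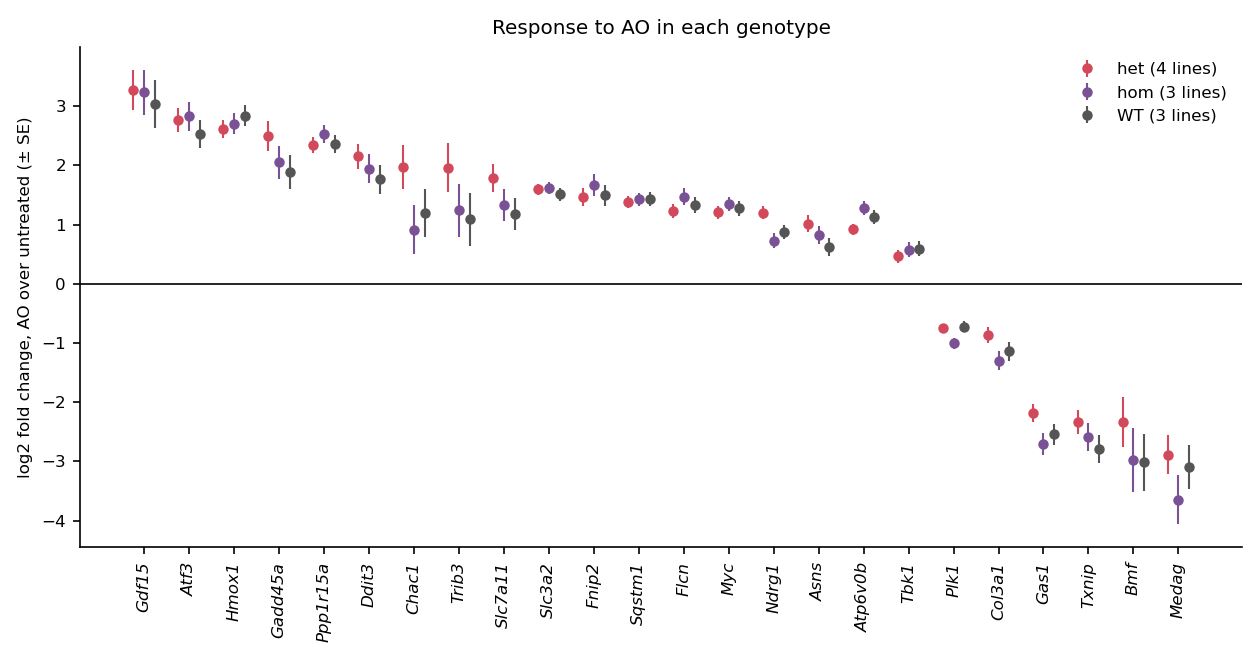
Log2 fold change of AO over untreated for 24 named genes in het (red, 4 lines), hom (purple, 3 lines) and WT (grey, 3 lines) lines, with bars for the SE of the fit. The sign was the same in all genotypes for each gene shown.

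AO and poly(I:C) were compared directly in the 4 het lines. Their libraries differed in 4967 genes (37.2%), of which 2345 were higher with AO (17.5%) and 2622 lower (19.6%). Without E2.6 the count was 4854, and without the pairing 2462. Gdf15 averaged 9.45 ± 2.704 CPM with AO and 1.12 ± 0.37 CPM with poly(I:C) (SD, n = 4 lines each), a log2 difference of 3.07 ± 0.34 (SE, adjusted p = 7.42e-07). Ddit3 averaged 248.9 ± 24.7 CPM with AO and 43.4 ± 16.6 CPM with poly(I:C), and Hmox1 447.8 ± 136.8 CPM with AO and 75.9 ± 25.6 CPM with poly(I:C), with no overlap of the groups for either. Txnip differed by -3.56 (adjusted p = 2.00e-10): it averaged 13.2 ± 6.46 CPM with AO, 153 ± 61.9 CPM with poly(I:C) and 65.7 ± 29.6 CPM untreated, so that it was lower than untreated with one agent and higher with the other. Flcn differed by 1.83 (adjusted p = 1.19e-09). Atf3 did not differ beyond its error (0.077, adjusted p = 0.78), and neither did Lif (0.19, adjusted p = 0.541).

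The genes with the largest differences towards poly(I:C) are known to respond to viral RNA or interferon. Cxcl11, a ligand of Cxcr3, averaged 0.115 ± 0.231 CPM with AO and 19.3 ± 16.1 CPM with poly(I:C), a log2 difference of -7.29 ± 0.47 (SE). Mx2, an antiviral GTPase, averaged 8.95 ± 12.02 CPM with AO and 189.1 ± 185.4 CPM with poly(I:C), and Gbp5, a guanylate-binding protein, 1.18 ± 1.24 CPM with AO and 59.7 ± 55.9 CPM with poly(I:C). Spread between lines was as large as the mean for these genes with poly(I:C). Of the 42 interferon-stimulated genes, none was higher with AO than untreated and 41 were higher with poly(I:C) than untreated, where both comparisons share their untreated libraries. Against untreated libraries, poly(I:C) moved 17.8% of all genes tested, 8.81% higher and 8.97% lower. Of 21 stress-response regulators, 15 were higher with AO and 3 with poly(I:C), again against the same untreated libraries.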

How the data were processed

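The authors deposited expected counts per gene, 1 table per library. Of the values in each table, 6.11% to 11.2% had a fractional part. STAR, RSEM and the build mm10 are named in the submitters' processing notes, without versions or settings. Per the labels' protocols, libraries were made from 500 ng of RNA (RNeasy Plus) with the TruSeq Stranded mRNA kit. RSEM estimates shares of reads that match several genes, so close paralogs are less certain.

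The expected counts were rounded. Names and coordinates came from GENCODE vM21 on GRCm38, which matched 49326 of 49585 genes. The 30 libraries without a density label (3689144 to 14879227 counts) entered 1 model in edgeR 4.0.16 (R 4.3.3), which used TMM, filterByExpr (minimum count 10, minimum total 15), 10 line coefficients and 6 treatment coefficients, which left 14 residual degrees of freedom. The quasi-likelihood F test was used, with Benjamini-Hochberg adjustment over all 13364 genes and a threshold of 0.05. The 6 density libraries of WT line E1.5 were not used here. CPM refers to library sizes adjusted by TMM, and changes within a line used a prior count of 2. The test was tried on simulated counts.

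Pairing rests on the line name in the labels. Across genes, the AO and untreated libraries of a het line deviated together, with r of 0.607 to 0.749. No het AO or untreated libraries of a group agreed within sampling noise.

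The libraries were grouped by label, but this response and the 37 gene lists were chosen with earlier results of these data known. Genes were named by rule: the 12 largest rises and 12 largest falls (average log2 CPM 1 or more, all 4 lines moving one way), in each list the 3 with the lowest p, a set of 30 chosen genes, and the 6 largest differences per direction from poly(I:C), 136 genes in all for AO; other list members illustrate their list. Alternatives were RLE factors, no filter, DESeq2 1.42.0, no pairing, het libraries alone, and each line left out. Promoter windows, RefSeq on GRCm38.p6, were matched by symbol.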

Additional observations from a re-analysis of the deposited data

Results flagged for a closer look

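For 11 of the 136 named genes, the log2 change in 1 line lay far from the changes in the other 3, where chance alone flags about 1 gene in 20. In all 11 the line was E2.6. These genes are not independent of each other, and what sets the line apart was not tested.

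Trib3 changed by 4.70 in E2.6 and by 0.95 to 1.22 in the other lines, and Chac1 by 5.30 in E2.6 and 0.93 to 1.57 in the others. Slc1a4, a neutral amino acid carrier, changed by 2.19 in E2.6 and 0.96 to 1.06 in the others. Cass4 changed by 4.02 in E2.6 and 1.54 to 1.69 in the others, from an untreated level in E2.6 of 1 count. Among genes that fell, Gprin3 changed by -1.43 in E2.6 and -2.59 to -2.50 in the others, Trib2 by -1.65 in E2.6 and -2.42 to -2.35 in the others, and Gas1 by -1.49 in E2.6 and -2.38 to -2.26 in the others. The gaps of the last genes were small in size: Optn changed by 0.83 in E2.6 and 0.71 in each of the others, Atp6v1h by 0.43 and 0.81 to 0.88, Pprc1 by 0.40 and 0.55 to 0.58, and Ccnb1 by -0.35 and -0.27 to -0.25.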

How the results depend on the processing

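The count of genes that AO changed in het lines was 3671. With RLE factors it was 3650, with no filter 3481, with DESeq2 3598, with the 12 het libraries alone 4256 and with the 8 compared libraries alone 5010. It fell to 1486 without the replicate block, and it was 2191 to 3475 when 1 het line was left out. For AO against poly(I:C) the count was 4967, with 2462 without the replicate block and 3412 to 4854 with 1 line left out. For the het response minus the WT response, no gene passed with any line left out, while 24 passed with no filter and 1 with DESeq2. For the het response minus the hom response, no gene passed with any line left out, while 39 passed with no filter and 1 with DESeq2. The causes were not tested.

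Of the 136 named genes, none changed sign except Pink1, which did not pass in any setting and stood at 0.013 without E2.8. Without the replicate block 36 genes lost their call, with DESeq2 and with no filter 1 each, and with 1 line left out 2 to 13. Calls were gained by 3 genes on the 12 het libraries alone and on the 8 (Atp5k, Sdhd and Nbr1) and by 2 with no filter (Atp5k and Ifnb1). With RLE factors all kept theirs. Depth of 5234667 to 8486287 counts limits what can be said of genes at a few counts, such as Ifnb1, Fgf21 and Cxcl2.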

Other observations

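Some gene families defined by name or annotation had more members called in one direction with AO in het lines. They were picked after their values were seen, are given with no test, and share members with the lists above, such as Klf4 and Klf6 of the immediate-early genes and Snhg12 of the snoRNA hosts. Of 346 zinc finger genes named Zfp, 28 rose and 88 fell (8.09% and 25.4%, against 12.9% and 14.6% of all genes tested), with Zfp41 at 6.69, 4.92, 6.78 and 4.91 CPM with AO and 16.99, 12.8, 12.97 and 18.9 CPM untreated. Of 287 genes annotated as lincRNA or antisense RNA, 9 rose (3.14%) and 45 fell (15.7%). The share that fell was near that of all genes tested, and only the share that rose was lower. Neat1, the RNA scaffold of paraspeckles, had 54.9, 32.8, 102 and 43.1 CPM with AO and 189, 177, 145 and 185 CPM untreated, a log2 change of -1.66 ± 0.19 (SE) (adjusted p = 3.11e-06), and was lower in every line.

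Of 14 Klf transcription factor genes, 7 rose and none fell, among them Klf9 (1.26 ± 0.23 (SE)). Vps genes, which encode parts of the endosomal sorting machinery, rose in 10 of 34 cases and fell in 1: Vps37b, of an ESCRT complex, rose by 1.01 ± 0.12 (SE), and Vps35, of retromer, by 0.52 ± 0.094 (SE). Of 15 Adamts genes, secreted metalloproteases that cut matrix proteins, 6 fell and none rose. Adamts5 had 83.3, 58.0, 78.4 and 59.0 CPM with AO and 199, 108, 91.5 and 138 CPM untreated, a change of -0.88 ± 0.17 (SE).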
